A study of Mus musculus with 12 samples.

Results

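The 40 genes described here are interferon-stimulated genes, taken as a list of symbols. They were read in mouse prefrontal cortex after viral delivery of a transthyretin (Ttr) construct. The list was chosen with earlier results of these data known, so its counts beside those of all genes describe it and test nothing. The list leaves out the Oas and Ifit families, the interferon-inducible GTPases and the MHC genes. Each of the 40 symbols matched 1 of the 55401 gene identifiers in the count table, and all 40 were among the 18289 genes with enough counts to be tested. By role they are 8 sensors of nucleic acid and their regulators, 4 transcription factors, 11 genes of the ISG15, ubiquitin and ADP-ribose systems and 17 effectors.

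The 12 libraries came from male C57BL/6J mice aged 14 weeks, and surgery had taken place 4 weeks earlier. All groups received an adeno-associated virus (AAV) on both sides of the dorsomedial prefrontal cortex, and every virus carried green fluorescent protein (GFP). The 4 control libraries had a CAG-GFP vector from a repository. The 4 overexpression libraries had a CAG vector in which GFP is joined to Ttr through a P2A peptide, and the 4 knockdown libraries had a vector with a U6-driven short hairpin against Ttr beside CAG-GFP. Both Ttr vectors came from another supplier, a viral vector core, and carry a WPRE element that is not in the control vector's name, so the source and backbone of the vector cannot be told apart from the Ttr construct. No group without virus or surgery was analysed here. The labels number the samples 1 to 4 in each group without saying that each is 1 mouse, so the p-values reflect only how far these libraries vary, and some of that variation may be technical.

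Interferons are secreted proteins that cells release after sensing foreign or misplaced nucleic acid. Type I interferon binds its receptor, the kinases Jak1 and Tyk2 phosphorylate Stat proteins, among them Stat2, and these join Irf9 to form a factor that binds the interferon-stimulated response element (ISRE) of target genes. The targets include the sensors and transcription factors themselves, so the response feeds forward, and Usp18 is among its brakes. In brain, microglia, astrocytes, endothelial cells and neurons can all respond.

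The ISRE core is shown for members whose promoter holds it. It was searched as GAAANNGAAA on both strands in the 250 bases before each transcription start of the RefSeq promoter table (GRCm38.p6). The table held 32 of the 40 members, and 9 of these (28.1%) had at least 1 match, against 936 of 27025 genes in the table (3.46%). The 9 were Bst2, Ddx60, Isg15, Lgals9, Rsad2, Slfn5, Slfn8, Stat2 and Trim30a. The core TTCNNNGAA of the gamma-activated site, an element of genes that respond to interferon gamma, was found in 3 of the 32 members (9.38%; Bst2, Eif2ak2 and Irf1) and in 2197 of the 27025 genes (8.13%). A match is a description of letters in this window and not a binding site, and members without one were not examined outside it. The stretches of 6 members are printed 5′ to 3′ on the gene's strand with the ISRE core in capitals and up to 30 bases on each side. They have the smallest edgeR p for overexpression against control among the members that hold the core outside annotated exons, and the other 3 were left out because their stretch touches an exon. In Isg15 and Bst2 several matches run into each other, and in Slfn8, Trim30a, Rsad2 and Stat2 the core lies on the other strand and appears here as its reverse complement. In Bst2 the first of the ISRE matches shares bases with the gamma-activated core.
Isg15: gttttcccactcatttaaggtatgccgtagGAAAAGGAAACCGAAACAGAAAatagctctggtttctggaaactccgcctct
Bst2: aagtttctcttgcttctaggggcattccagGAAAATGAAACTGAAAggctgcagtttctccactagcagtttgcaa
Slfn8: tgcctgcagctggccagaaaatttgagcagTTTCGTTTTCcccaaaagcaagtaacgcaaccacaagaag
Trim30a: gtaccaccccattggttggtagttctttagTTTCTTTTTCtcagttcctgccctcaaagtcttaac
Rsad2: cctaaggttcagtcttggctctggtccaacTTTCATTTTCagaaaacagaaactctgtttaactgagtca
Stat2: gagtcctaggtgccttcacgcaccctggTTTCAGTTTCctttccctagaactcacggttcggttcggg
The stretches lie at chr4:156200845-156200926 (minus strand), chr8:71537557-71537632 (minus), chr11:83020819-83020888 (minus), chr7:104465194-104465259 (minus), chr12:26456533-26456602 (minus) and chr10:128270248-128270315 (plus).

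Total counts ran from 19879629 to 37166146 per library, lowest in knockdown replicate 4. Ttr had 2121 to 20940 counts in the overexpression libraries, 14 to 200 in the controls and 3 to 47 with knockdown, so the overexpression libraries lay above all controls, and the overlap of the other 2 ranges means that Ttr does not check the knockdown label. Markers of cortical excitatory neurons were present throughout, with 1598 to 1831 CPM of Slc17a7 in controls (CPM, counts scaled to a common library total with TMM factors). Striatal markers summed to 50.0 to 414 CPM and oligodendrocyte markers to 2203 to 8842 CPM over the 12 libraries, both with overlap between the 3 groups. The oligodendrocyte sum of 2203 CPM was that of knockdown replicate 4, and every other library had at least 3550 CPM. The part of this difference in the members' values was not tested. All values are of bulk tissue, in which more responding cells and more RNA per cell cannot be told apart.

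The interferon-stimulated genes stood higher in all 4 knockdown libraries and in 2 of the 4 overexpression libraries than in the controls. Each library is described by the median, over the 40 genes, of log2 CPM minus the mean of the 4 controls. The medians of control replicates 1 to 4 were 0.21, -0.082, 0.063 and -0.22. Those of knockdown replicates 1 to 4 were 0.76, 1.47, 0.71 and 2.85, so all lay above every control and replicate 4 lay far above the rest. Overexpression replicates 1 and 2 had 0.22 and -0.082, near the controls, with 16 and 4 of the 40 genes above every control. Overexpression replicates 3 and 4 had 1.32 and 1.44. Knockdown replicate 4 held the highest value of all 12 libraries for 37 of the 40 genes, overexpression replicate 4 for 2 (Zbp1 and Irf1) and knockdown replicate 1 for 1 (Adar). Knockdown replicate 4 was followed by replicate 2 within its group in 38 of 40 genes, and overexpression replicates 3 and 4 were the 2 highest of theirs in 36 of 40. Scaled to gene length, the 40 genes together made up 389 to 459 TPM (TPM, a count scaled to gene length and library total, as the authors deposited it) in controls. Overexpression replicates 1 to 4 had 468, 405, 798 and 854 TPM, and knockdown replicates 1 to 4 had 683, 994, 639 and 2403 TPM.

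**Figure D1:**
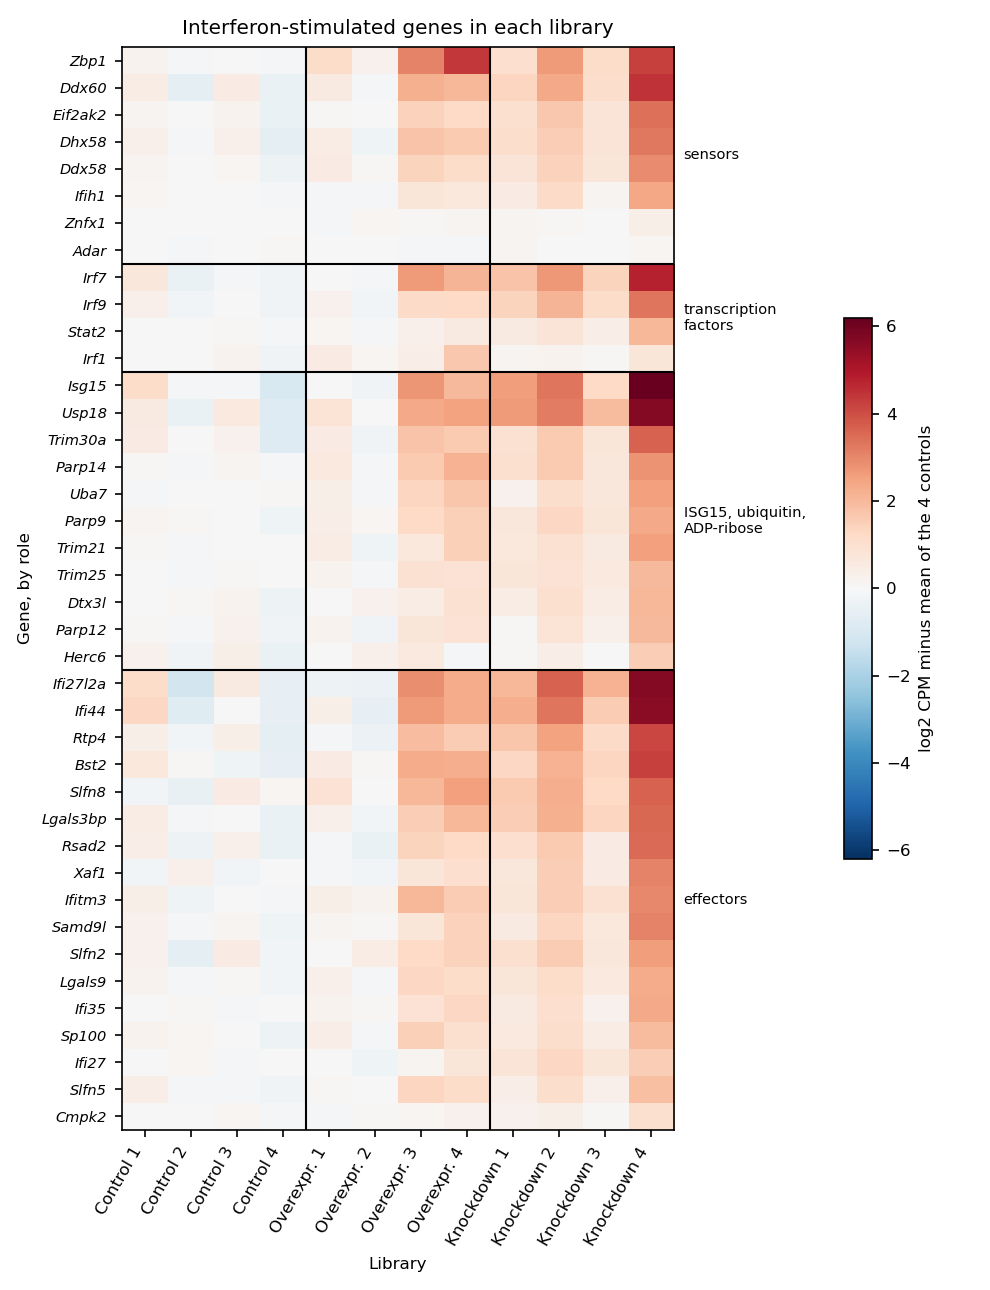
Each cell is 1 gene (row, grouped by role) in 1 library (column), coloured by log2 CPM minus the mean of the 4 control libraries. The last column, knockdown replicate 4, is darkest for nearly all genes, overexpression replicates 3 and 4 are raised and replicates 1 and 2 are near the controls, while Adar and Znfx1 stay pale in all columns.

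**Figure D2:**
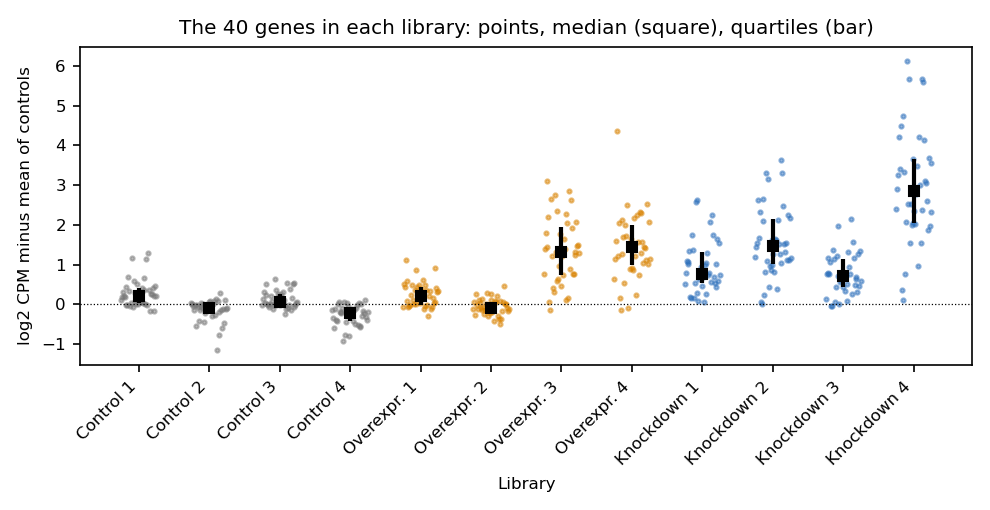
Each point is 1 of the 40 genes, as log2 CPM minus the mean of the 4 controls (y axis), in each of the 12 libraries (x axis). Squares are medians and bars span the quartiles, and the median is 2.85 in knockdown replicate 4 against -0.22 to 0.21 in the controls.

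The comparison of knockdown with control asks how the cortex differs with the hairpin vector. All 40 genes had higher means with knockdown, with log2 fold changes of 0.067 to 4.29 and a median of 1.76, while the median over all genes tested was 0.0047 and 51.8% of all genes were positive. In 33 of the 40, every knockdown library lay above every control, which held for 2.78% of all genes tested. The edgeR quasi-likelihood test passed 0 of the 40 at a Benjamini-Hochberg adjusted p of 0.05 over all genes (lowest adjusted p = 0.234, highest 0.946), where it passed 0.00547% of all genes. An unadjusted edgeR p below 0.05 with a higher mean was found for 36 of the 40, against 3.85% of all genes. DESeq2 passed 12 of the 40, all higher, against 0.224% of all genes passing as higher, limma-voom passed 0, and edgeR with no filter on low counts passed 4 (Irf9, Usp18, Ifi27 and Lgals3bp). The 12 that rose in DESeq2 were Irf7, Irf9, Isg15, Usp18, Trim25, Ifi27, Ifi27l2a, Ifi44, Rtp4, Slfn2, Slfn8 and Lgals3bp. The spread within the knockdown group was wide for these genes, with a median SD of 0.99 on the log2 CPM scale against 0.13 over all genes tested. In the controls the corresponding medians were 0.24 and 0.13.

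Knockdown replicate 4 set the size of this difference but not its direction. Without it the median log2 fold change over the 40 genes was 1.00, 0 of the 40 passed in edgeR and 32 had an unadjusted edgeR p below 0.05 with a higher mean. The mean of knockdown replicates 1 to 3 was 1.04 to 6.34 times the control mean over the 40 genes (median 2.00), whereas replicate 4 alone was 1.08 to 62.5 times the control mean (median 7.27).

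**Figure D3:**
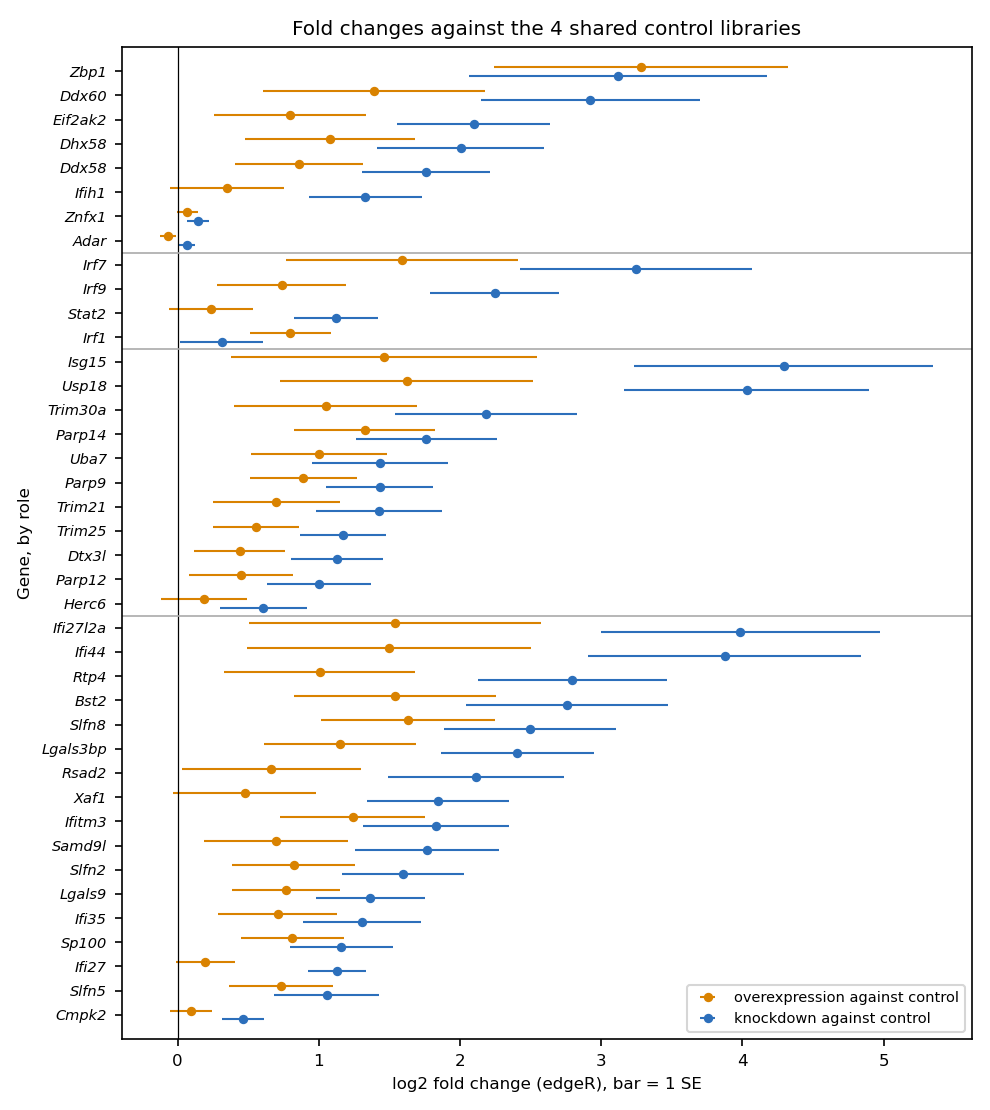
Log2 fold change of each gene (edgeR, x axis) with 1 SE, for overexpression (orange) and knockdown (blue) against the same 4 control libraries, grouped by role (y axis). Blue points lie to the right of orange ones for 38 of the 40 genes, Zbp1 and Irf1 being the exceptions, and the bars are long for the genes with large fold changes.

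The sensors of RNA and DNA had a median log2 fold change of 1.88 with knockdown and 0.83 with overexpression. Ddx58 encodes RIG-I, which recognises the ends of viral RNA. It had 7.42, 11.7, 7.30 and 32.7 CPM in knockdown replicates 1 to 4 and 4.89, 4.29, 4.70 and 3.38 in controls 1 to 4, groups that do not overlap (1.76 ± 0.45 on the log2 scale, SE; edgeR adjusted p = 0.518). The overexpression libraries had 6.16, 4.43, 11.4 and 9.59 CPM, with replicates 1, 3 and 4 above every control and replicate 2 inside the control range. Eif2ak2, the kinase PKR that stops translation on binding double-stranded RNA, had 11.8, 18.6, 10.0 and 62.0 CPM with knockdown against 6.59, 5.73, 6.88 and 4.42 in controls (2.10 ± 0.54; edgeR adjusted p = 0.518). With overexpression it had 6.19, 5.75, 15.9 and 13.7 CPM, and replicates 1 and 2 lay within the controls. Ddx60, a helicase that assists antiviral signalling, had 3.83, 7.67, 3.17 and 34.2 CPM with knockdown and 2.03, 0.977, 2.13 and 1.08 in controls (2.92 ± 0.77; edgeR adjusted p = 0.522), and 2.23, 1.35, 7.02 and 6.35 with overexpression. In all 3 genes knockdown replicate 4 stood well above the other libraries. Dhx58, the RIG-I-like regulator LGP2, had 1.40, 0.825, 3.69 and 3.24 CPM with overexpression against 1.28, 0.977, 1.28 and 0.651 in controls (1.08 ± 0.60; edgeR adjusted p = 0.836), which overlap. It had 2.23, 3.08, 1.80 and 10.3 CPM with knockdown, all above the controls. Ifih1, the sensor MDA5 of long double-stranded RNA, had 9.30 to 44.5 CPM with knockdown, 7.67 to 14.2 with overexpression and 7.63 to 9.11 in controls.

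Zbp1, a sensor of Z-form nucleic acid that can trigger cell death, had the largest log2 fold change of the 40 genes with overexpression. Its CPM were 0.610, 0.306, 2.61 and 6.39 in overexpression replicates 1 to 4 and 0.290, 0.212, 0.246 and 0.217 in controls, so that the groups do not overlap although replicate 2 came close (3.28 ± 1.04; edgeR adjusted p = 0.626). Knockdown libraries had 0.582, 1.86, 0.628 and 5.77 CPM (3.12 ± 1.05; edgeR adjusted p = 0.753). The control values rest on 5 to 9 counts per library, the lowest of the 40 genes. Its means in the Ttr groups were 2.48 ± 2.80 CPM (SD, n = 4) with overexpression and 2.21 ± 2.44 with knockdown, with an SD as large as the mean.

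Adar and Znfx1 had the smallest fold changes of the sensors. Adar, which edits adenosine to inosine and so hides the cell's own double-stranded RNA from the sensors, had 230.2 ± 8.62 CPM in controls, 219.9 ± 12.1 with overexpression and 241 ± 15.2 with knockdown (SD, n = 4 each). Its log2 fold changes were -0.066 ± 0.058 and 0.067 ± 0.058 (edgeR adjusted p = 0.877 and 0.938), and it was the only member with a lower mean in overexpression than in control. Znfx1, a helicase-like sensor at mitochondria, had 90.4 to 92.1 CPM in controls, 86.5 to 102 with overexpression and 88.6 to 117 with knockdown, ranges that overlap. Its log2 fold changes were 0.069 ± 0.077 and 0.14 ± 0.077 (edgeR adjusted p = 0.915 and 0.897). Per length, Adar was the most abundant of the 40 genes in controls at 97.3 ± 5.10 TPM (SD, n = 4) and Znfx1 the third, at 31.5 ± 0.793 TPM.

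The transcription factors split by member. Irf7, the factor that amplifies type I interferon production and is itself induced, had 9.12, 17.2, 6.90 and 73.1 CPM in knockdown replicates 1 to 4 against 4.35, 1.95, 2.51 and 2.30 in controls (3.24 ± 0.82; edgeR adjusted p = 0.518, DESeq2 adjusted p = 0.0431). In overexpression replicates 1 to 4 it had 2.62, 2.48, 16.9 and 11.8 CPM (1.59 ± 0.82; edgeR adjusted p = 0.831), the first 2 inside the control range and the others well above it. Irf9, the DNA-binding part of the complex that reads the ISRE, had 22.6, 37.3, 19.0 and 87.7 CPM with knockdown and 10.9, 7.77, 8.74 and 7.50 in controls. The lowest knockdown library was thus 1.75 times the highest control (2.24 ± 0.46; edgeR adjusted p = 0.241, DESeq2 adjusted p = 0.00694). Overexpression libraries had 10.3, 7.77, 20.0 and 20.7 CPM. Stat2, its partner, had 30.7, 37.3, 28.5 and 88.6 CPM with knockdown, 21.7, 20.4, 22.6 and 19.9 in controls and 22.7, 20.3, 26.1 and 31.0 with overexpression. For Stat2 the knockdown fold change was 1.12 ± 0.30 (edgeR adjusted p = 0.522), smaller than those of Irf7 and Irf9, but again all 4 knockdown libraries lay above all controls.

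Irf1, a factor that responds strongly to interferon gamma, had its higher mean with overexpression. Its CPM were 9.86, 7.70, 9.35 and 22.7 in overexpression replicates 1 to 4, 7.81, 8.30, 7.33 and 11.9 in knockdown replicates 1 to 4 and 6.88, 7.22, 8.11 and 6.03 in controls. The log2 fold change was 0.80 ± 0.29 with overexpression (edgeR adjusted p = 0.718) and 0.31 ± 0.29 with knockdown (edgeR adjusted p = 0.946). Overexpression replicate 4 was the highest of the 12 libraries, above knockdown replicate 4, which was the highest for most other members. The difference between the Ttr groups was 0.49 ± 0.29 and did not pass (edgeR adjusted p = 0.974), and without overexpression replicate 4 the log2 fold change with overexpression was 0.33. That library also had the highest CPM of Cd8a, a marker of cytotoxic T cells (3.46 against at most 0.561 in the other 11). It had 3 counts of Ifng, the interferon gamma gene, against 0 or 1 elsewhere. Its summed markers of T and NK cells, Cd8a among them, were 32.1 CPM, close to the 31.7 CPM of control replicate 4. The part of T cells in the Irf1 value was not tested.

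**Figure D4:**
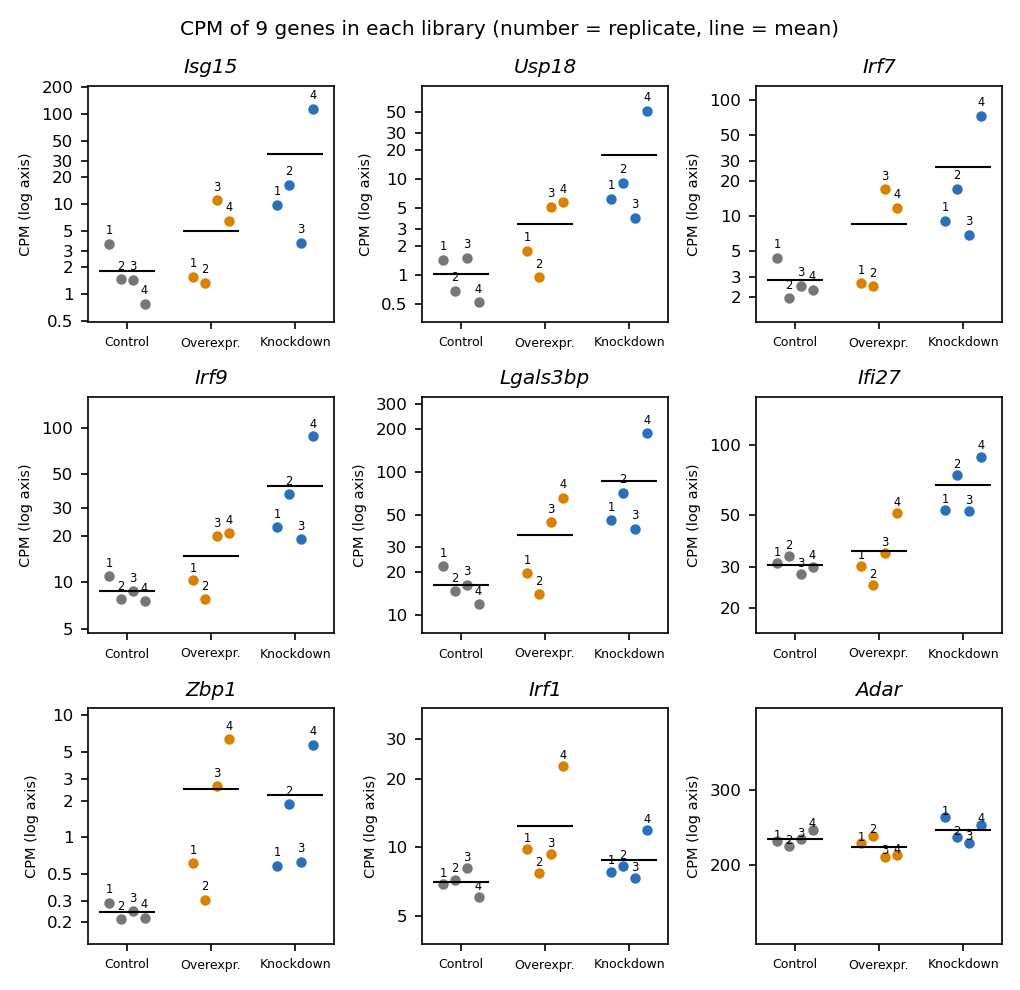
CPM on a log axis (y) of 9 genes in the 12 libraries, by group (x). Numbers are replicates and lines are means. Isg15, Usp18, Irf7, Irf9 and Lgals3bp are highest in knockdown replicate 4, and Ifi27 separates knockdown from both other groups. Irf1 is highest in overexpression replicate 4, and Adar is level.

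Isg15 and Usp18 had the largest knockdown fold changes of the 40 genes. Isg15, a ubiquitin-like protein that is attached to other proteins, had 9.61, 16.0, 3.71 and 113 CPM in knockdown replicates 1 to 4 and 3.56, 1.44, 1.42 and 0.781 in controls (4.29 ± 1.06; edgeR adjusted p = 0.518, DESeq2 adjusted p = 0.0168). Replicate 4 was 62.5 times the control mean, and replicate 3 was just above the highest control. In overexpression replicates 1 to 4 it had 1.56, 1.31, 10.9 and 6.39 CPM. Usp18, the protease that removes ISG15 and also damps the type I receptor, had 6.26, 9.05, 3.94 and 51.8 CPM with knockdown, 1.45, 0.680, 1.50 and 0.521 in controls and 1.77, 0.948, 5.09 and 5.73 with overexpression. Its knockdown fold change was 4.03 ± 0.87 (edgeR adjusted p = 0.326, DESeq2 adjusted p = 0.00254). Uba7, the activating enzyme for ISG15, had 3.59, 6.36, 4.82 and 17.3 CPM with knockdown, 2.82, 2.93, 2.89 and 3.08 in controls and 3.78, 2.66, 7.41 and 9.90 with overexpression, log2 fold changes of 1.44 ± 0.48 and 1.00 ± 0.48 (edgeR adjusted p = 0.753 and 0.807). Herc6, the mouse ligase that attaches ISG15, overlapped between groups at 19.0 to 54.9, 17.8 to 28.5 and 14.0 to 24.3 CPM in knockdown, overexpression and control.

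The ubiquitin ligases and ADP-ribosyl transferases had smaller fold changes than Isg15 and Usp18. Trim25, which ubiquitinates RIG-I, had 12.0, 13.3, 11.1 and 29.1 CPM with knockdown and 7.33, 6.97, 7.62 and 6.98 in controls, a narrow control range from which all knockdown libraries were separate (1.17 ± 0.30; edgeR adjusted p = 0.518, DESeq2 adjusted p = 0.0279). Overexpression libraries had 8.42, 6.79, 14.2 and 13.4 CPM. Parp14, an ADP-ribosyl transferase, had 6.10, 3.73, 12.5 and 18.2 CPM with overexpression, 8.01, 12.4, 6.56 and 27.6 with knockdown and 4.14, 3.65, 4.45 and 3.64 in controls. Its fold changes were 1.33 ± 0.50 and 1.76 ± 0.50 (edgeR adjusted p = 0.736 and 0.573). Parp9, which works in a complex with the ligase Dtx3l, had 4.91, 4.00, 8.77 and 10.4 CPM with overexpression, 6.07, 9.05, 6.42 and 19.3 with knockdown and 4.27, 3.99, 3.69 and 3.08 in controls, and fold changes of 0.89 ± 0.38 and 1.43 ± 0.38 (edgeR adjusted p = 0.789 and 0.522). For Parp9 and Parp14 overexpression replicates 3 and 4 were close to or above knockdown replicate 2. The remaining genes are the ligases Trim21, which recognises antibody-bound virus, Trim30a, a member of a mouse family with close copies, and Dtx3l, and the transferase Parp12. They had knockdown fold changes of 1.42, 2.18, 1.13 and 1.00 and overexpression fold changes of 0.70, 1.05, 0.44 and 0.45 on the log2 scale. Parp12 with knockdown overlapped the controls (11.1 to 43.4 against 9.11 to 12.8 CPM).

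Among the 17 effectors, Ifi27 separated knockdown best. Ifi27 encodes a small hydrophobic protein of mitochondria and had 52.6, 74.0, 52.2 and 89.1 CPM in knockdown replicates 1 to 4, 31.1, 33.4, 28.0 and 30.1 in controls and 30.3, 25.0, 34.4 and 51.1 with overexpression. Every knockdown library lay above every other library, which was so for no other member. The fold change against control was 1.13 ± 0.21 (edgeR adjusted p = 0.234, DESeq2 adjusted p = 0.000153), with the smallest edgeR p of the 40 genes. These are well-covered values, with 750, 786, 1027 and 693 counts in controls 1 to 4. Lgals3bp, a secreted glycoprotein that binds galectins, had 46.0, 71.9, 40.2 and 187 CPM with knockdown, 21.8, 14.6, 16.3 and 11.9 in controls and 19.6, 13.9, 44.9 and 66.3 with overexpression (2.41 ± 0.54 for knockdown; edgeR adjusted p = 0.417, DESeq2 adjusted p = 0.0301). Rtp4, a chaperone of receptors that also binds viral RNA, had 8.39, 14.2, 5.68 and 44.5 CPM with knockdown, 3.19, 2.17, 3.25 and 1.65 in controls and 2.26, 1.90, 9.53 and 7.50 with overexpression (2.79 ± 0.67 for knockdown; edgeR adjusted p = 0.518, DESeq2 adjusted p = 0.0373). For both genes all knockdown libraries and overexpression replicates 3 and 4 exceeded all controls.

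Slfn8, Ifitm3 and Sp100 had the smallest effector p-values with overexpression, and none of them passed in that comparison. Slfn8, a member of the Schlafen family that restrains growth of immune cells, had 2.35, 1.22, 5.30 and 7.28 CPM with overexpression, 1.08, 0.850, 1.77 and 1.30 in controls and 3.93, 6.05, 2.99 and 16.3 with knockdown. Its fold changes were 1.63 ± 0.62 and 2.49 ± 0.61 (edgeR adjusted p = 0.736 and 0.518, DESeq2 adjusted p = 0.0435 for knockdown). Reads shared with close family copies may make its counts uncertain, and this was not measured. Ifitm3, which blocks fusion of viruses with cell membranes, had 9.34, 8.35, 30.4 and 21.7 CPM with overexpression, 9.36, 6.07, 7.15 and 6.81 in controls and 12.1, 21.0, 13.9 and 58.2 with knockdown (1.24 ± 0.51 and 1.83 ± 0.52; edgeR adjusted p = 0.783 and 0.565). Sp100, a protein of nuclear bodies, had 4.55, 3.21, 9.56 and 6.93 CPM with overexpression, 3.98, 3.65, 3.36 and 2.73 in controls and 5.14, 7.43, 4.71 and 13.6 with knockdown (0.81 ± 0.36 and 1.16 ± 0.36; edgeR adjusted p = 0.792 and 0.673). In all 3, overexpression replicates 3 and 4 were above every control and at least 1 of replicates 1 and 2 was inside the control range.

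The other effectors differed in size. Ifi27l2a and Ifi44, which are induced by type I interferon, had knockdown fold changes of 3.98 ± 0.99 and 3.87 ± 0.97 (edgeR adjusted p = 0.518 and 0.518, DESeq2 adjusted p = 0.0373 and 0.0359), on 6 to 37 and 11 to 53 counts per control library. Ifi27l2a had 3.01 to 37.4 CPM with knockdown, 0.489 to 5.23 with overexpression and 0.255 to 1.53 in controls, and Ifi44 had 2.68 to 44.4 with knockdown and 0.581 to 5.59 with overexpression. In both the knockdown range lay wholly above the controls and the overexpression range did not. Bst2, the tether that holds virus particles to the cell, and Rsad2, the radical enzyme viperin, had knockdown fold changes of 2.76 ± 0.72 and 2.11 ± 0.62. Bst2 had 8.59 to 65.7 CPM with knockdown, 3.61 to 17.1 with overexpression and 2.43 to 5.51 in controls, and Rsad2 had 3.02 to 24.5, 1.56 to 5.66 and 1.56 to 2.82. Xaf1, which binds an inhibitor of cell death, had 8.79 to 53.9 CPM with knockdown against 5.55 to 7.65 in controls, and Samd9l, a restriction factor that limits translation, had 11.0 to 63.4 against 6.20 to 9.07. Lgals9, a galectin that modulates immune cells, had 8.84 to 29.6 against 5.16 to 6.83 CPM, and these ranges do not overlap for any of the 3. Slfn5 and Cmpk2 were the 2 effectors whose knockdown range met that of the controls, with 8.04 to 24.0 against 5.51 to 8.53 CPM and 31.9 to 58.6 against 27.2 to 32.1. On the log2 scale the knockdown fold changes of Xaf1, Samd9l, Slfn2, Lgals9, Ifi35, Slfn5 and Cmpk2 were 1.84, 1.76, 1.59, 1.36, 1.31, 1.06 and 0.46, of which Slfn2, another Schlafen gene, passed in DESeq2 (adjusted p = 0.0376). Their overexpression fold changes ran from 0.10 (Cmpk2) to 0.82 (Slfn2). Ifi35, which binds signalling proteins of the response, was the only member besides Zbp1 whose overexpression libraries all lay above all controls (2.72 to 6.39 against 2.40 to 2.72 CPM), a gap smaller than the spread of either group.

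The comparison of overexpression with control asks how the cortex differs with the Ttr overexpression vector. Of the 40 genes, 39 had higher means with overexpression (51.4% of all genes tested), with a median log2 fold change of 0.81 against 0.0038 over all genes. EdgeR passed 0 of the 40 (lowest adjusted p = 0.626, for Zbp1) where it passed 0.00547% of all genes. An unadjusted edgeR p below 0.05 was found for 7, all higher (Zbp1, Irf1, Parp9, Parp14, Ifitm3, Slfn8 and Sp100), against 4.58% of all genes. DESeq2 passed 0 of the 40, where 0.202% of all genes passed as higher, with 10 at an unadjusted p below 0.05, and limma-voom passed 0. Groups did not overlap for 2 of the 40 genes, against 1.88% of all genes. Overexpression replicates 3 and 4 stood apart: both exceeded every control in 38 of the 40 genes, with medians of 2.51 and 2.68 times the control mean, while replicates 1 and 2 both lay within the control range in 20. Replicate 3 was the higher of these 2 in 19 genes and replicate 4 in 21. Without replicate 4 the number with an unadjusted edgeR p below 0.05 was 1, without replicate 3 it was 3, and without replicates 1 or 2 it was 13 and 16. Without control replicates 2, 3 or 4 it was 4 in each case.

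Vessel and meningeal markers went with this group. The summed CPM of 12 mural and meningeal markers was 149, 143, 235 and 181 in overexpression replicates 1 to 4, 69.9 to 123 in controls and 94.4 to 131 with knockdown. With the mean of these markers in each library as a covariate, the median log2 fold change of the 40 genes was -0.18 for overexpression and 1.40 for knockdown against control, and -1.44 for overexpression against knockdown. The marker level and the overexpression group cannot be told apart fully, since all 4 overexpression libraries lie above all controls in it. The 6 border macrophage markers also went with the group, with sums of 11.2, 11.0, 16.1 and 8.57 CPM in overexpression replicates 1 to 4, 3.64 to 7.78 in controls and 6.65 to 9.04 with knockdown. Of these, Mrc1, a mannose receptor, rose in DESeq2 with 7.42, 6.18, 8.92 and 5.51 CPM against 3.64, 3.48, 3.93 and 1.87 in controls (adjusted p = 0.00156; edgeR adjusted p = 0.297), and the other 5 did not pass. The part of these macrophages in the members' values was not tested.

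Set directly against each other, 38 of the 40 genes had lower means with overexpression than with knockdown, with a median log2 difference of -0.87 against 0.0002 over all genes. EdgeR passed 0 (lowest adjusted p = 0.855; 0.00547% of all genes passed), and 19 had an unadjusted p below 0.05 with the lower mean in overexpression, against 2.32% of all genes. Ifi27 was the only gene whose groups did not overlap (-0.93 ± 0.21, 1 of 40 against 1.14% of all genes) and the only one DESeq2 passed (adjusted p = 0.0192; 0.0437% of all genes passed as lower), and limma-voom passed 0. Without knockdown replicate 4 the median difference was -0.16, so its size rested on that library. Irf1 and Zbp1 were the 2 genes with higher means in overexpression (0.49 ± 0.29 and 0.17 ± 0.81), of which the value of Zbp1 turned to -0.90 without overexpression replicate 4.

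The other pathway genes reported here, 50 in all with 38 tested, had smaller fold changes than the members. EdgeR passed 0 of the 38 in each of the 3 comparisons, DESeq2 passed 0 in each, and 6 were higher with an unadjusted edgeR p below 0.05 in overexpression and 5 in knockdown against control, with 0 lower in either. Over all genes tested the shares called higher by this rule were 4.58% and 3.85%, below the shares of the 38 in both comparisons. Their median log2 fold change was 0.089 with overexpression and 0.12 with knockdown. With knockdown the smallest p-values belonged to Tlr7 and Tlr3, endosomal receptors of RNA (0.52 ± 0.20 and 0.56 ± 0.23 on the log2 scale), and Ptpn1, a phosphatase that acts on receptor kinases (0.20 ± 0.081). With overexpression they belonged to Nfkb1, a subunit of NF-kappaB (0.24 ± 0.081), Ikbke, a kinase that activates interferon regulatory factors (0.67 ± 0.24), and Ptpn6, a phosphatase of blood and microglial cells (0.70 ± 0.31). Between the Ttr groups they belonged to Ikbke, Ptpn6 and Tbk1, a kinase related to Ikbke (0.49 ± 0.24, 0.57 ± 0.31 and 0.09 ± 0.057), none with an unadjusted edgeR p below 0.05. The 8 measured receptors and receptor kinases had log2 fold changes of -0.010 to 0.27 with overexpression and -0.028 to 0.26 with knockdown, and Ifnar1, a chain of the type I receptor, had 42.6 ± 1.76 CPM in controls, 43.5 ± 1.36 with overexpression and 44.8 ± 1.86 with knockdown (SD, n = 4 each).

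The interferon genes searched were at or under the limit of detection. Of 11 ligand genes searched, 6 (Ifna1, Ifna2, Ifna5, Ifnk, Ifnl2 and Ifnl3) had 0 counts in all 12 libraries, and a count of 0 allows up to 3 counts, or 0.0807 to 0.151 CPM (counting error only). Ifnb1 had 1 count, in knockdown replicate 4, and Ifna4 had 1 count each in that library and in control replicate 1. Ifne had 1 count in knockdown replicate 4 and Ifnz 1 in overexpression replicate 1, while Ifng had 1 and 3 counts in overexpression replicates 1 and 4. No difference in any of these ligands was detectable at this depth, and other interferon genes were not searched.

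**Figure D5:**
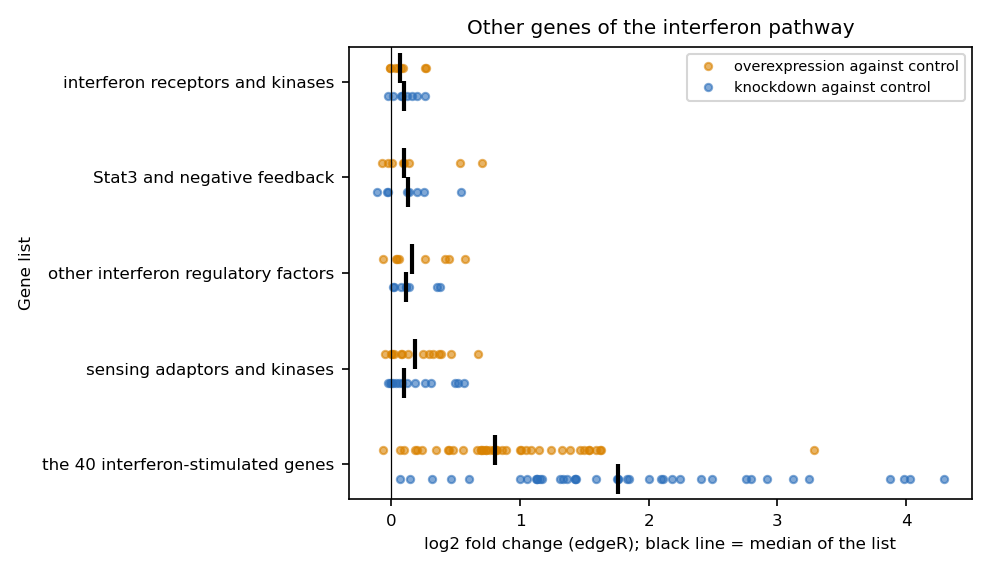
Log2 fold change (edgeR, x axis) of each tested gene of the other pathway lists and of the 40 genes (rows), for overexpression (orange) and knockdown (blue) against control, with the median of each list as a black line. Points of the other lists lie between -0.11 and 0.70, while the 40 genes spread up to 4.29.

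Markers of other cells were read beside the members. The 6 microglial markers summed to 332 to 390 CPM in controls, to 411, 322, 424 and 552 CPM in the overexpression libraries in order, and to 388, 410, 382 and 525 CPM in the knockdown libraries. They were thus highest in replicate 4 of both Ttr groups, and overexpression replicate 2 was below the controls. The 9 markers of T and NK cells summed to 16.7 to 31.7 CPM in controls, 18.8 to 32.1 with overexpression and 16.8 to 24.1 with knockdown. The CD3 genes, which define T cells, had at most 0.306 CPM each in knockdown libraries and up to 2.09 CPM in overexpression replicate 4. Markers of B and plasma cells, Igkc among them, summed to 119, 59.9, 28.7 and 104 CPM in overexpression replicates 1 to 4. Their sums were 32.4 to 45.8 CPM with knockdown, below the 49.4 to 67.2 CPM of the controls. Within this list the antibody gene Igkc had 73.8, 3.42, 2.04 and 24.6 CPM in the 4 overexpression libraries in order. It had 0.663 to 3.34 CPM with knockdown and 0.304 to 2.61 in controls. Both the sum and Igkc were highest in overexpression replicate 1. The part of B and plasma cells in the members' values was not tested. The 6 markers of blood-derived myeloid cells summed to 0.998 to 1.95 CPM in controls, 2.26 to 7.90 with overexpression and 1.41 to 5.36 with knockdown, and Ly6c2, a marker of inflammatory monocytes, was 0 in 3 controls and in knockdown replicate 1. Endothelial markers summed to 163, 167, 211 and 188 CPM in overexpression replicates 1 to 4, 165, 181, 174 and 216 in knockdown replicates 1 to 4 and 145 to 165 in controls. Knockdown replicate 4 and overexpression replicates 3 and 4 had the 3 highest of these sums. Astrocyte markers summed to 3517, 3352, 3932 and 3552 CPM with overexpression, highest of all 12 libraries in replicate 3, to 3165 to 3899 with knockdown and to 2967 to 3783 in controls. Their part in the members' values was not tested.

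Most members also varied together over the libraries. A Pearson r was taken between each gene's log2 CPM and the median of the other members, across the 12 libraries of all 3 groups. Such an r includes the differences between groups and the high values of knockdown replicate 4. It was at least 0.9 for 35 of the 40 genes. The 5 others were Ifi27 (0.87), Herc6 (0.77), Znfx1 (0.75), Irf1 (0.58) and Adar (0.07). Levels per length in controls ran from 0.303 ± 0.0455 TPM for Zbp1 to 97.3 ± 5.10 TPM for Adar, with Ifi27 (78.6 ± 4.40), Znfx1 and Ifitm3 (27.1 ± 5.26) next below Adar. With knockdown Ifi27 (171 ± 41.1 TPM), Isg15 (122 ± 173) and Adar (102 ± 4.79) had the highest means, the mean of Isg15 resting on replicate 4. Exons of 17 of the 40 genes overlap another annotated gene, 6 of them on the same strand, and the strand setting of the counting is not given in the sources used here. Among these are Irf9, which shares exon sequence with Rnf31 on the same strand, and the pair Parp9 and Dtx3l. That pair overlaps on opposite strands. The counts of Irf9 and Rnf31 may not be fully told apart, and for Parp9 and Dtx3l this depends on the strand setting.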

How the data were processed

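Poly(A) RNA from 12 prefrontal cortex samples (3 groups of 4) was sequenced. The authors deposited whole-number counts per gene, which are not normalized. They also deposited TPM values and variance-stabilised values on a log2 scale, whose making is not stated. Per the submitters' processing notes the tools, listed without role, were featureCounts, UMI-tools, DESeq2 and bcl2fastq 2.20.0.422, and the build was GRCm38 (mm10). For the aligner, annotation release and strand setting: not given in the sources used here. Of 55401 identifiers, 55141 matched a symbol, and coordinates are from GENCODE on GRCm38.

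Counts were tested with edgeR 4.0.16 (quasi-likelihood, TMM, default expression filter) in R 4.3.3, with 3 group means fitted to all 12 libraries and Benjamini-Hochberg adjustment over 18289 genes at 0.05. CPM used the TMM factors, and log2 CPM a prior count of 2. The steps were tested on simulated data. Pairs of libraries within a group differed by more than sampling noise (chi-square per degree of freedom of 5.38 to 28.3). Alternatives were DESeq2 1.42.0, limma 3.58.1 with voom and on TPM and variance-stabilised values, other scalings and filters, the replicate block, a marker covariate and each library left out. The members, lists and roles were chosen with earlier results of these data known. A rule set which genes are named. Values in every library are given for the 3 members of each role with the smallest edgeR p in each comparison with control. Other members are given by range, mean or fold change, where Trim21, Trim30a, Dtx3l and Slfn2 have a fold change without a range. Members against the direction of their role's median are named. Of the other pathway genes, the 3 with the smallest p in each comparison are named. One gene of the pathway list is not reported here and is left out of its counts. Any further gene, such as Ifnar1, was chosen after its values were seen. Figures used Python 3.11.15 and matplotlib 3.10.9.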

Additional observations from a re-analysis of the deposited data

How the results depend on the processing

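The number of the 40 genes that passed was 0 in edgeR for all 3 comparisons under each other scaling, the stricter filter, the fits of only 2 groups, limma-voom, limma on TPM and variance-stabilised values, the replicate block, the marker covariate and each library left out. It was not 0 for knockdown against control with no filter on low counts (4) and with DESeq2 (12), and for overexpression against knockdown with DESeq2 (1). The median log2 fold change for overexpression against control turned to -0.18 with the mural and meningeal covariate, and ran from 0.61 to 0.99 with single libraries left out. For knockdown against control it was 0.75 on the variance-stabilised values and 1.00 to 1.99 with single libraries left out. For overexpression against knockdown it ran from -1.05 to -0.16 with single libraries left out and was -1.44 with the covariate. On the variance-stabilised values the medians for overexpression were 0.36 against control and -0.35 against knockdown. With the replicate block the medians were 0.71, 1.51 and -0.78. Deviations of same-numbered libraries from their group means correlated at -0.34 to 0.16. The labels give no shared animal, litter or day, and these values cannot tell whether any was shared. Among single genes, the value for overexpression against control turned with the covariate for Ddx58 (-0.24), Dhx58 (-0.60), Eif2ak2 (-0.56), Ddx60 (-0.74), Irf7 (-0.72), Irf9 (-0.21), Stat2 (-0.16), Usp18 (-0.71), Isg15 (-1.62), Trim25 (-0.10), Ifitm3 (-0.19), Sp100 (-0.17), Lgals3bp (-0.10) and Rtp4 (-0.96), and that of Ifi27 without overexpression replicate 4 (-0.045, up to 0.33 with another library left out). Between the Ttr groups Zbp1 turned with limma-voom (-0.14), TPM with a pseudocount of 0.1 (-0.0033, with and without the filter), the covariate (-1.23), and without overexpression replicate 4 (-0.90), knockdown replicate 1 (-0.14) or knockdown replicate 3 (-0.18), against 1.23 without knockdown replicate 4. Without knockdown replicate 4, Parp14 (0.15), Uba7 (0.25), Ifitm3 (0.14) and Sp100 (0.067) turned, against lowest values of -0.88, -0.79, -1.01 and -0.66 with another library left out. The cause was not tested. Genes passing in edgeR over the whole table numbered 1 in each comparison, 10 for knockdown without knockdown replicate 4, and with DESeq2 38, 43 and 11 for overexpression and knockdown against control and for the Ttr groups. With no filter 20 and 22 passed against control. Members with an unadjusted p below 0.05 for overexpression (7) numbered 0 with the covariate, 1 in limma-voom, 2 on variance-stabilised values, 19 with no filter and 25 with only 2 groups. Of the 40 genes, 19 had at least 100 counts in every library, and the lowest count was 5 (Zbp1).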

Other observations

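Some members that lie side by side in the genome differed in the size of their fold changes. Rsad2 and Cmpk2 are neighbours on chromosome 12 (26442746 to 26456452 on the minus strand and 26469204 to 26479837 on the plus strand, GRCm38). Rsad2 had 9.64 ± 10.0 CPM with knockdown against 2.17 ± 0.636 in controls (SD, n = 4; 2.11 ± 0.62 on the log2 scale), and Cmpk2, a mitochondrial nucleotide kinase, 41.3 ± 11.8 against 29.9 ± 2.08 (0.46 ± 0.15). Both were highest in knockdown replicate 4. Ifi27 and Ifi27l2a, also neighbours on chromosome 12 (103434211 to 103440239 and 103442167 to 103443680), had 67.0 ± 17.9 against 30.6 ± 2.22 CPM and 13.2 ± 16.4 against 0.801 ± 0.578 CPM. Their log2 fold changes with knockdown were 1.13 ± 0.21 and 3.98 ± 0.99, so the gene with the higher control level had the smaller fold in both pairs. Parp9 and Dtx3l, which overlap on chromosome 16, had closer log2 fold changes with knockdown, at 1.43 ± 0.38 and 1.13 ± 0.32. These pairs were chosen after their values were seen.

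Socs1 and Socs3 encode feedback inhibitors of cytokine receptors. Socs1 had 0.485, 0.672, 0.827 and 1.84 CPM in knockdown replicates 1 to 4, 0.854, 0.520, 1.04 and 1.38 in overexpression replicates 1 to 4 and 0.580, 0.680, 0.655 and 0.651 in controls, on 10 to 36 counts per library. Socs3 had 5.43, 4.66, 3.77 and 3.57 CPM with knockdown, 3.60, 2.72, 3.08 and 6.39 with overexpression and 3.69, 2.72, 4.42 and 3.69 in controls, and knockdown replicate 4 was the lowest of its group. Irf8, a factor of microglia and other myeloid cells, had 8.91, 5.72, 7.84 and 17.6 CPM with overexpression, 8.25, 6.88, 6.96 and 12.4 with knockdown and 7.17, 7.73, 5.51 and 6.42 in controls, and was highest in overexpression replicate 4. These genes were chosen after their values were seen.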
